A study of Mus musculus with 2 samples.

Results

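The cell response to oxidants and reactive chemicals was described here through 10 genes of glutathione metabolism and of the Nrf2 pathway in GL261, a mouse glioma cell line of the C57BL/6 strain that the labels class as astrocytoma. The genes are Nfe2l2, Keap1, Hmox1, Nqo1, Gclc, Gclm, Gsr, Txnrd1, Srxn1 and Prdx1, found by symbol among the 32285 genes of the count tables, and all 10 passed the minimum of 50 UMIs over both cultures. Adherent cells were grown in DMEM with fetal bovine serum and penicillin-streptomycin. Neurosphere cells, which grow as floating clusters, were kept for 12 days in the same medium plus B-27, a supplement that holds antioxidants, and the growth factors EGF and FGF (20 ng/mL of each). Both were trypsinized and frozen in medium with DMSO before single-cell RNA sequencing, and neurospheres were also triturated, so growth form, growth factors, B-27 and handling cannot be told apart. Each culture gave 1 library, so no difference between them has a replicate check, no test was run, and every interval covers counting error only.

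Nrf2, the protein of Nfe2l2, is a transcription factor that Keap1 holds in the cytoplasm and passes to the proteasome. Oxidants and electrophiles modify Keap1, Nrf2 then builds up, pairs with a small Maf protein in the nucleus and binds antioxidant response elements (AREs) near its target genes. These targets make and recycle glutathione, the main small thiol of the cell, run the thioredoxin and peroxiredoxin cycle, and break down heme and quinones. Since Nrf2 is controlled mostly through its stability, the RNA level of Nfe2l2 does not measure its activity, and Hmox1 is also driven by heme and by other stress pathways.

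The DNA that Nrf2 reads is shown here for the members whose start sites hold a match to the ARE core, TGACNNNGC. Windows from 250 bases before to 50 bases after a start site were taken from RefSeq (GRCm38.p6), which gave 9 windows for 7 of the 10 genes. No window was at hand for Hmox1, Gclc and Gsr. Searched on both strands, the core was found in 5 of the 9 windows, 1 window each of Nfe2l2, Srxn1, Gclm, Prdx1 and Txnrd1, against 12.39% of all 32851 windows. The windows of Keap1 and Nqo1 and 2 further windows of Txnrd1 held no match. AREs outside the windows were not searched for, so a gene without a match here may still have one. The stretches run 5′ to 3′ on the strand of the gene, and capitals mark the core, which reads as TGACNNNGC on the same strand for Nfe2l2 and as its reverse complement for the other 4 genes.
Nfe2l2 (chr2:75704869-75704913, minus strand): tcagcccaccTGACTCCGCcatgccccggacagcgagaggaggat
Srxn1 (chr2:152105542-152105571, plus strand): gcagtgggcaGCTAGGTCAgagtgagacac
Gclm (chr3:122245397-122245457, plus strand): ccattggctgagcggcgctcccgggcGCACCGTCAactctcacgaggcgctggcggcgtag
Prdx1 (chr4:116685440-116685500, plus strand): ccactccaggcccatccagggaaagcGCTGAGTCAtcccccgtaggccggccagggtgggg
Txnrd1 (chr10:82859088-82859148, plus strand): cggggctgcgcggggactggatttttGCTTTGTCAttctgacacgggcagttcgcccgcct
The match began 240 bases before the start site in Nfe2l2, 134 before it in Gclm, 133 before it in Prdx1 and 92 before it in Txnrd1, and at base 29 of the transcript in Srxn1. The RefSeq start of Nfe2l2 lies upstream of the gene's first GENCODE base (75704641), and counted from that base the match would fall outside a window of this size. The Prdx1 core also overlaps a match to TGANTCA, the letters that AP-1 factors read, which occurred in 7.81% of all windows and in the windows of Prdx1 and Srxn1 among the members. A match describes letters and is not a measured binding site.

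The adherent library held 5764 called cells, of which 5051 were kept, with 46290996 UMIs in sum and 8260 in the median cell. From the neurosphere library, 4276 of 4951 called cells were kept, with 64943938 UMIs in sum and 13199 in the median cell. The libraries shared 12 cell barcodes, 9 of them among kept cells. The median mitochondrial share of kept cells was 2.02% in adherent and 3.97% in neurosphere cells. Levels are counts per 1000000 (CPM), the UMIs of a gene summed over the kept cells and scaled by the sum over all genes. Fold changes are neurosphere over adherent CPM, on the log2 scale, with the exact 95% interval in parentheses. Because the cells differed in depth, shares of cells with a UMI were taken after each cell was thinned to 5000 UMIs, which kept 4464 adherent and 4196 neurosphere cells and left out 587 and 80 as too shallow. Both libraries come from 1 cell line, so no cell type lacking these genes was there to show the share of cells that free RNA gives. Of 8 immune cell markers, only Cd68 reached 50 UMIs, and Ptprc, Adgre1, Tyrobp and C1qa, which define blood-derived and microglial cells, had 0 or 1 UMI in each library. Of 6 astrocyte markers, Slc1a3, a glutamate transporter, was at 370 and 80.5 CPM, S100b at 161 and 255 CPM, Aldoc at 11.3 and 17.1 CPM and Aldh1l1 at 3.63 and 5.39 CPM in adherent and neurosphere cells, while Aqp4 was at 0 in both libraries and Gfap was at 0.648 CPM in the adherent and 0.416 CPM in the neurosphere library.

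Of the 8 genes that act downstream, 5 were lower in neurosphere than in adherent cells (Hmox1, Nqo1, Gclm, Txnrd1 and Srxn1) under every scaling tried, Gsr was higher, and Gclc and Prdx1 were close to level. Of the regulators, Keap1 was higher and Nfe2l2 close to level. The median log2 fold change of the members was -0.41, beside 0.32 over all 14654 genes with at least 50 UMIs, and 8 of the 10 lay below the median of all genes. Hmox1 and Nqo1 were over 2-fold lower in neurosphere cells, and 11.7% of all genes were. No member was over 2-fold higher, a size that 21.7% of all genes reached. With another scaling of the totals (TMM), every log2 fold change was lower by 0.22, and with mitochondrial and ribosomal genes counted in the totals every one was higher by 0.22. The second setting brought Keap1 and Gsr past 2-fold (log2 fold changes of 1.10 and 1.14) and left Nqo1 alone past it in the lower direction, and none of the other 9 alternatives moved a member across the median of all genes, which the 2 scalings could not do since they shift all genes alike.

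**Figure D1:**
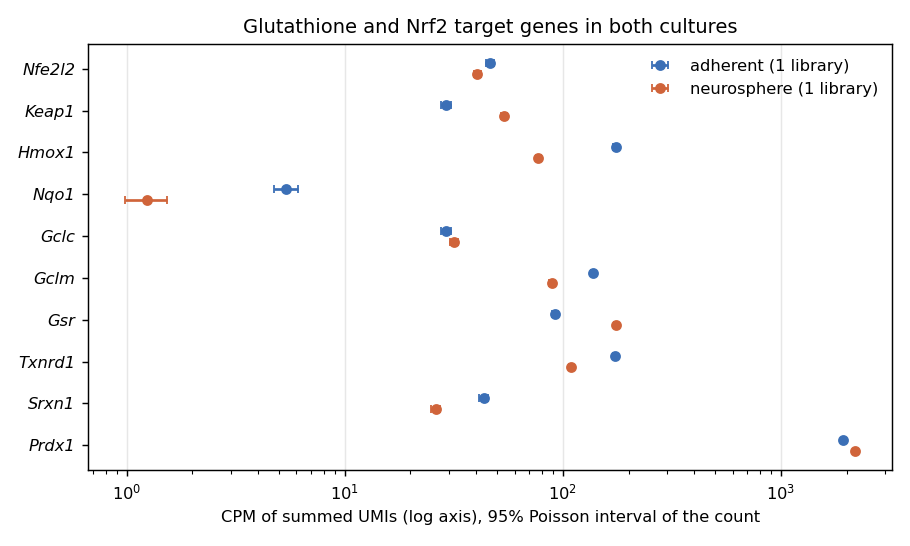
Level of each member in CPM (log axis) in the adherent (blue) and the neurosphere (orange) library, with 95% Poisson intervals of the count. How well levels compare between different genes was not tested. Hmox1, Nqo1, Gclm, Txnrd1 and Srxn1 sit to the left in neurosphere cells, Keap1 and Gsr to the right.

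The regulators come first. Nfe2l2 (ENSMUSG00000015839, chromosome 2, 75675513 to 75704641, minus strand) had 2148 UMIs in adherent and 2630 UMIs in neurosphere cells, or 46.4 and 40.5 CPM. Its log2 fold change was -0.20 (-0.28 to -0.11), and with mitochondrial and ribosomal genes in the totals it was 0.023, on the other side of 0. After thinning, 20.3% of adherent and 18.2% of neurosphere cells held a UMI of it.

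Keap1 (ENSMUSG00000003308, chromosome 9, 21229730 to 21239361, minus strand), the adaptor that leads Nrf2 to degradation, had 1349 UMIs in adherent and 3492 UMIs in neurosphere cells. These are 29.1 and 53.8 CPM, and the log2 fold change was 0.88 (0.79 to 0.98). Thinned cells with a UMI made up 13.1% of adherent and 22.0% of neurosphere cells. The higher level in neurosphere cells was therefore seen both in the sum and in the share of cells.

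Glutathione is made in 2 steps, and the first is set by glutamate-cysteine ligase, whose catalytic subunit is Gclc and whose modifier subunit is Gclm. Gclc (ENSMUSG00000032350, chromosome 9, 77754535 to 77794485, plus strand) had 1350 UMIs in adherent and 2053 UMIs in neurosphere cells, or 29.2 and 31.6 CPM. Its log2 fold change of 0.12 (0.02 to 0.22) changed sign under 3 of 11 alternatives, at -0.10 with TMM scaling, -0.064 in thinned cells and -0.058 as the mean of each cell's CPM. The shares of thinned cells, 13.5% in adherent and 13.0% in neurosphere cells, had overlapping intervals (12.5% to 14.6% and 12.0% to 14.1%). No direction can be read for Gclc at this depth and scaling.

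Gclm (ENSMUSG00000028124, chromosome 3, 122245557 to 122270732, plus strand) had 6353 UMIs in adherent and 5779 UMIs in neurosphere cells, or 137 and 89.0 CPM. It was lower in neurosphere cells, with a log2 fold change of -0.63 (-0.68 to -0.57), and 47.6% of adherent against 32.4% of neurosphere thinned cells held a UMI. The 2 subunits of the ligase thus stood apart, and the interval of Gclm did not meet that of Gclc.

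Gsr (ENSMUSG00000031584, chromosome 8, 33652523 to 33698163, plus strand), glutathione reductase, returns oxidized glutathione to its reduced form with NADPH. It had 4270 UMIs in adherent and 11340 UMIs in neurosphere cells, or 92.2 and 175 CPM, and the log2 fold change was 0.92 (0.87 to 0.97). Of thinned cells, 36.6% of adherent and 53.7% of neurosphere cells held a UMI. The intervals of Gsr and Keap1 overlapped, and their order changed under 3 of the 11 alternatives.

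Thioredoxin reductase 1, from Txnrd1 (ENSMUSG00000020250, chromosome 10, 82833951 to 82897712, plus strand), recharges thioredoxin in the cytosol. Txnrd1 had 8020 UMIs in adherent and 7089 UMIs in neurosphere cells, or 173 and 109 CPM. Its log2 fold change was -0.67 (-0.71 to -0.62), and 54.5% of adherent and 38.9% of neurosphere thinned cells held a UMI. It was lower in neurosphere cells by about as much as Gclm.

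Srxn1 (ENSMUSG00000032802, chromosome 2, 152105516 to 152111376, plus strand), sulfiredoxin, repairs peroxiredoxins that have been overoxidized. It had 2005 UMIs in adherent and 1697 UMIs in neurosphere cells, or 43.3 and 26.1 CPM, and the log2 fold change was -0.73 (-0.82 to -0.64). Of thinned cells, 16.0% of adherent and 9.70% of neurosphere cells held a UMI. Its level and its share of cells were both lower in neurosphere cells.

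Prdx1 (ENSMUSG00000028691, chromosome 4, 116685544 to 116700822, plus strand), an abundant peroxiredoxin that removes hydrogen peroxide, was detected in nearly all cells. It had 89547 UMIs in adherent and 142580 UMIs in neurosphere cells, or 1934 and 2195 CPM. The log2 fold change of 0.18 (0.17 to 0.19) has a narrow interval because of the large count, yet it was smaller than the shift between scalings and was -0.034 with TMM scaling. The shares of thinned cells, 99.9% and 99.8%, could not show a difference.

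Heme oxygenase 1, from Hmox1 (ENSMUSG00000005413, chromosome 8, 75093621 to 75100589, plus strand), opens the heme ring and frees its iron. Hmox1 had 8069 UMIs in adherent and 5001 UMIs in neurosphere cells, or 174 and 77.0 CPM, and the log2 fold change was -1.18 (-1.23 to -1.13). A UMI was held by 41.4% of adherent and 23.1% of neurosphere thinned cells. A single neurosphere cell carried 23.6% of the neurosphere UMIs, and without it the level was 58.9 CPM and the log2 fold change -1.57. Hmox1 was over 2-fold lower in 10 of 11 alternatives, the exception being mitochondrial and ribosomal genes in the totals (-0.96).

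Nqo1 (ENSMUSG00000003849, chromosome 8, 107388225 to 107403206, minus strand), a quinone reductase often used as a readout of Nrf2, was sparse. It had 248 UMIs in adherent and 80 UMIs in neurosphere cells, or 5.36 and 1.23 CPM. Its log2 fold change of -2.12 (-2.50 to -1.75) was the most negative of the members and the least precise, and stayed past 2-fold under all 11 alternatives. A UMI was held by 2.17% of adherent thinned cells and by 21 of the 4196 neurosphere thinned cells.

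**Figure D2:**
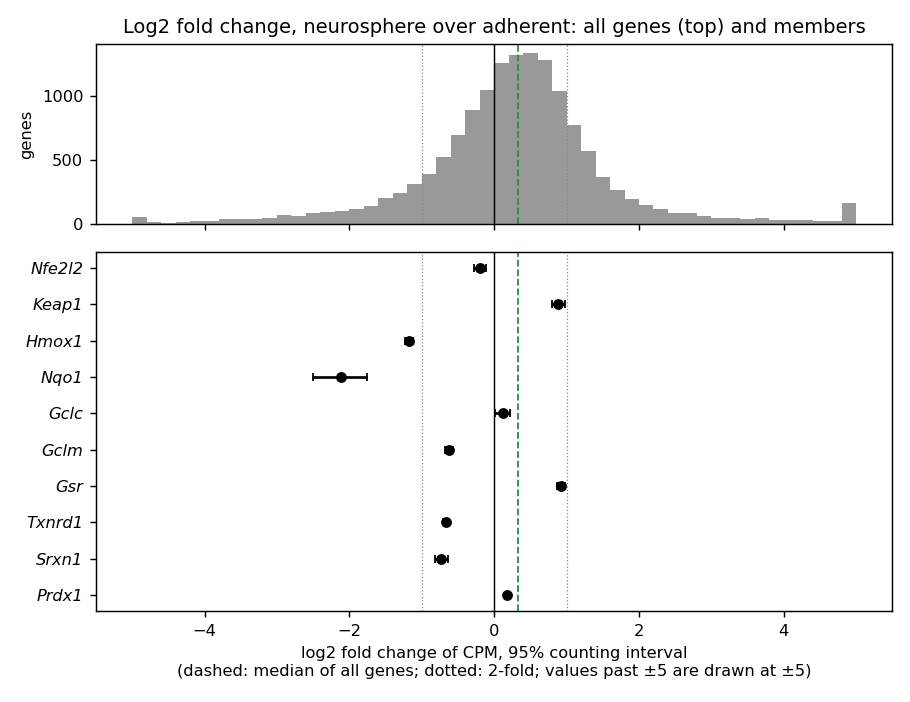
Distribution of the log2 fold change, neurosphere over adherent, over all 14654 genes (top) and the value of each member with its 95% counting interval (bottom); the dashed line is the median of all genes (0.32) and the dotted lines are 2-fold. Keap1 and Gsr lie right of the dashed line and the other 8 members left of it, with Hmox1 and Nqo1 past the lower 2-fold line.

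In the annotation, Keap1, Gclm and Txnrd1 each overlap a gene on the other strand (Gm16754, Gm17494 and Gm38560), and Txnrd1 also overlaps Eid3 on its own strand. How reads in these overlaps and in introns were counted is not given in the sources used here.

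Within a culture the members differed in how evenly cells carried them. In thinned cells, the variance of the UMIs of Nfe2l2, Keap1, Nqo1, Gclc, Gclm, Gsr and Txnrd1 was 0.995 to 1.22 times the mean, close to the value of 1 that counting alone gives. Hmox1 departed from this, with a variance of 5.54 times the mean in adherent cells, where 58.6% of cells had 0 UMIs and a Poisson count of the same mean would give 41.3%. In neurosphere cells the ratio was 50.5 and 76.9% of cells had 0 UMIs against a Poisson share of 70.0%, but without the single cell the ratio was 1.41 and the Poisson share 74.7%, with 76.9% of cells still at 0. Srxn1 was at 1.85 in adherent and 1.48 in neurosphere cells, and the abundant Prdx1 at 3.80 and, 15.2, or 3.44 without the single cell.

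The upper 5% of adherent cells (223 cells) by Hmox1 held 41.7% of its thinned UMIs, and the upper 5% of neurosphere cells (210 cells) held 49.2%, or 38.0% without the single cell. Such a share also depends on how sparse a gene is. In adherent cells Txnrd1, with 3919 thinned UMIs beside 3948 of Hmox1, was at 20.6%. In neurosphere cells without the single cell, Keap1, with 1075 beside 1224 of Hmox1, was at 33.8%. At least 5 Hmox1 UMIs were seen in 3.38% of adherent and 0.238% of neurosphere thinned cells. The lower Hmox1 of neurosphere cells thus showed both as fewer cells with a UMI and as fewer cells with many.

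**Figure D3:**
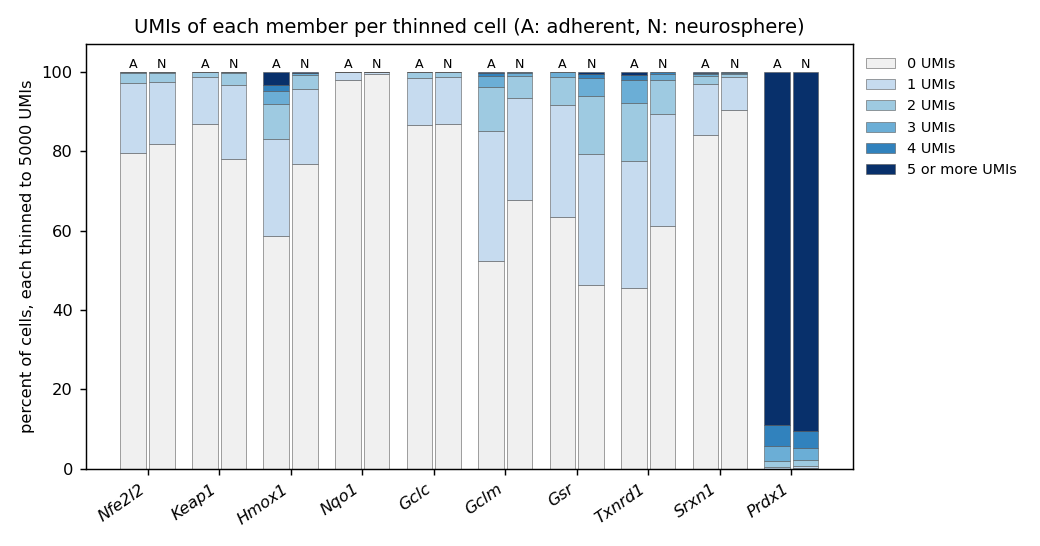
Percent of cells with 0, 1, 2, 3, 4 and at least 5 UMIs of each member after thinning to 5000 UMIs, in 4464 adherent (A) and 4196 neurosphere (N) cells. The share at 0 is higher in N for Hmox1, Gclm, Txnrd1 and Srxn1, lower in N for Keap1 and Gsr, and near 0 in both for Prdx1.

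Correlations between members across single cells were weak, apart from a value that 1 cell set. Over the 45 pairs, Pearson's r of the log of 1 plus the thinned UMIs ran from -0.088 to 0.116 in adherent cells, with a median of 0.013, and from -0.045 to 0.095 in neurosphere cells, with a median of 0.016. The highest pair was Hmox1 with Srxn1 in adherent cells and Hmox1 with Prdx1 in neurosphere cells, though without the single cell the latter was at 0.065 and Nqo1 with Srxn1 was highest at 0.082. On untransformed UMIs, a scale added after the data were seen, r of Hmox1 with Prdx1 in neurosphere cells was 0.879, and it was 0.103 without that cell. On this scale the highest pair was Nqo1 with Prdx1, at 0.160 in adherent cells and 0.135 in neurosphere cells without the single cell. On the log scale over all thinned cells this pair was at 0.068 in adherent and 0.042 in neurosphere cells. Whether a few cells very high in Prdx1, described below, set the untransformed values was not tested. These values describe sparse counts of cells that share a library.

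Cells with a UMI of Hmox1 were set beside cells without. Adherent cells with a UMI of Hmox1 (1846 thinned cells) carried a mean of 0.268 UMIs of Srxn1, against 0.176 in the 2618 cells without. The same cells held 1.09 UMIs of Nupr1, a stress-response gene, against 0.678. For Gclm the means were 0.711 and 0.661, and for Nqo1 they were 0.0238 and 0.0222. Among the other members, Srxn1 had the largest ratio, 1.52, and the rest lay between 0.852 and 1.09. In neurosphere cells (970 thinned cells with a UMI of Hmox1 and 3226 without), Srxn1 had a ratio of 1.14, Prdx1 of 1.21, Slc7a11 of 3.10 and Nupr1 of 6.44. Without the single cell, Prdx1 was at 1.14 and Slc7a11 at 2.60, and Nqo1, with 4 UMIs in cells with Hmox1 and 17 in the others, was too sparse for a ratio.

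One neurosphere cell, singled out after its values were seen, stood apart from all others. It had 21834 UMIs, 3752 genes and a mitochondrial share of 0.799%, and carried 1179 UMIs of Hmox1, while the next neurosphere cell had 29 and the highest adherent cell 102. Prdx1 reached 3164 UMIs in it, or 144912 CPM, against 2147 CPM in the other neurosphere cells. It also held 45 UMIs of Slc7a11, the cystine importer that feeds glutathione synthesis, which was 12.5% of all neurosphere UMIs of that gene.

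Of the other members, Srxn1, Gclm, Txnrd1 and Gsr were higher in this cell by smaller ratios. Srxn1 had 8 UMIs (366 CPM, interval 158 to 722, or 14.1 times the level of the other cells), Gclm had 14 (641 CPM against 88.8), Txnrd1 had 17 (779 CPM against 109) and Gsr had 13 (595 CPM against 174). Nfe2l2 and Gclc had 1 UMI each. Keap1 and Nqo1 had 0 UMIs, an interval that reaches 169 CPM at this depth. Outside the members, the cell carried 1349 UMIs of Cryab, a small heat shock protein, 185 of Nppb, a natriuretic peptide, and 125 of Sqstm1, which binds Keap1. It had 0 UMIs of the 8 immune cell markers, and whether it was a doublet was not tested.

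Cells with very high Prdx1 were rare in both cultures. With a limit of 10000 CPM, chosen after the values were seen, there were 3 adherent and 3 neurosphere cells, the single cell among the latter. The 3 adherent cells held 10 UMIs of Nqo1 (497 CPM against 5.14 in the other adherent cells) and 11 UMIs of Gclm (547 against 137 CPM). The 2 further neurosphere cells held 4 UMIs of Nqo1 (74.1 CPM against 1.17), 10 of Srxn1 (185 against 25.9 CPM) and 15 of Slc7a11 (278 against 4.62 CPM). In these few cells Nqo1 and Gclm or Srxn1 were high beside Prdx1.

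Cells with high Hmox1 were mostly adherent. A limit of 2000 CPM, also set after the values were seen, was passed by 43 adherent cells, which had a median of 6692 UMIs each and held 15.3% of adherent Hmox1 UMIs, and by 2 neurosphere cells, the single cell among them. In the 43 cells Srxn1 was at 151 CPM against 42.6 CPM in the other adherent cells, Gclm at 264 against 136 CPM, and Nfe2l2 at 106 against 46.0 CPM. Prdx1 was at 2219 against 1933 CPM and Keap1 at 27.4 against 29.2 CPM. Of the other members, the intervals of Keap1 (11.8 to 54.0 CPM), Nqo1 and Gclc held the level of the other cells, and those of the rest lay above it.

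Cells were also clustered within each culture, which gave 10 adherent and 10 neurosphere clusters. The members were not removed before clustering, so differences between clusters of 1 culture are a description. Keap1 was the only member for which every neurosphere cluster lay above every adherent cluster, at 41.1 to 68.4 CPM against 15.1 to 40.1 CPM, a separation that 7.75% of all genes showed. It rests on a narrow gap, since the intervals of the nearest clusters, neurosphere cluster 1 (35.7 to 47.1 CPM) and adherent cluster 6 (33.4 to 47.8 CPM), overlapped. For no member did every neurosphere cluster lie below every adherent cluster, which held for 2.42% of all genes. With the 2 clusters under 100 cells left out, an alternative added after the data were seen, 17.7% and 7.84% of all genes separated, Keap1 again being the only member above and no member lying below.

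Gsr nearly separated as well, with 98.4 to 218 CPM in neurosphere and 59.7 to 108 CPM in adherent clusters. Only neurosphere cluster 1 lay below the highest adherent cluster. With clusters under 100 cells left out, Gclm nearly separated in the lower direction. Only neurosphere cluster 7 lay above its lowest adherent level, 105.8 CPM in adherent cluster 8, and their intervals overlapped. The small adherent cluster 9, at 75.4 CPM from 10 UMIs of Gclm, lay lower. The neurosphere cluster 1, led by Comp, Pdzd2, Ism1, Slit3 and Loxhd1, was the lowest neurosphere cluster in Gsr. It was also the lowest in Keap1 (41.1 CPM), Hmox1 (38.5), Gclc (18.2), Gclm (54.5), Txnrd1 (79.3) and Prdx1 (1593), though its intervals for Keap1, Hmox1, Gclc, Gclm and Txnrd1 overlapped those of the next cluster. Its cells had a median of 7623 UMIs, the fewest of the neurosphere clusters, and a median mitochondrial share of 4.85%, the highest, and the part of either in these levels was not tested.

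Hmox1 varied most among adherent clusters of at least 100 cells, from 68.9 CPM in cluster 8 (led by Ly6a, Cd81, Ydjc, Rgcc and Cnp) to 341 CPM in cluster 4. Adherent cluster 4 was led by Cd68, Mt3, Trp53inp1, Ankrd33b and Spp1 and also had high Srxn1 (66.8 CPM, 59.0 to 75.4). Its Nqo1 (8.58 CPM, 5.94 to 12.0) overlapped that of other clusters. Its summed level of the 10 genes of the integrated stress response was 2710 CPM, against 1548 to 2188 CPM in the other 9. The adherent cluster 9, with 48 cells and a median mitochondrial share of 12.3%, had few UMIs of most members. Its Prdx1, at 56 UMIs or 422 CPM (319 to 549), lay below that of the other 9 clusters, at least 1617 CPM, and its Gclc, at 11 UMIs or 83.0 CPM (41.4 to 148), lay above their highest, 34.3 CPM. Its Hmox1 (9 UMIs, 31.0 to 129 CPM), Keap1 (2 UMIs, 1.83 to 54.5 CPM) and Nfe2l2 (10 UMIs, 36.2 to 139 CPM) could not be ranked at this depth. Adherent cluster 3, led by Areg, Spink2, Lcn2, Ube2c and Rogdi, was lowest in Gsr (59.7 CPM) and highest in Prdx1 (2600 CPM), and its Txnrd1 (108 CPM) overlapped that of cluster 7 by its interval.

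In neurosphere cells, Hmox1 lay between 38.5 and 84.7 CPM in the 9 clusters of at least 100 cells. The neurosphere cluster 9 stood outside this range at 1609 CPM, with 75 cells led by Cxcl2, Nppb, Ccl2, Cox6a2 and Ostn. It holds the single cell, which had 66.3% of the neurosphere UMIs of Nppb. With that cell included, its summed level of the integrated stress response genes was 3354 CPM, against 752 to 1241 CPM in the other 9. The other 74 cells of cluster 9 had 245 UMIs of Hmox1, or 284 CPM (249 to 322), still above the other clusters. They had 61 UMIs of Slc7a11, or 70.7 CPM (54.1 to 90.8), against 2.37 to 7.26 CPM in the 9 other clusters. Txnrd1 (173 CPM) and Nfe2l2 (77.6 CPM) of the 74 cells were also above the highest other cluster (129 and 46.0 CPM), whereas Prdx1 (2124 CPM) and Srxn1 (53.3 CPM) were not once the single cell was left out.

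**Figure D4:**
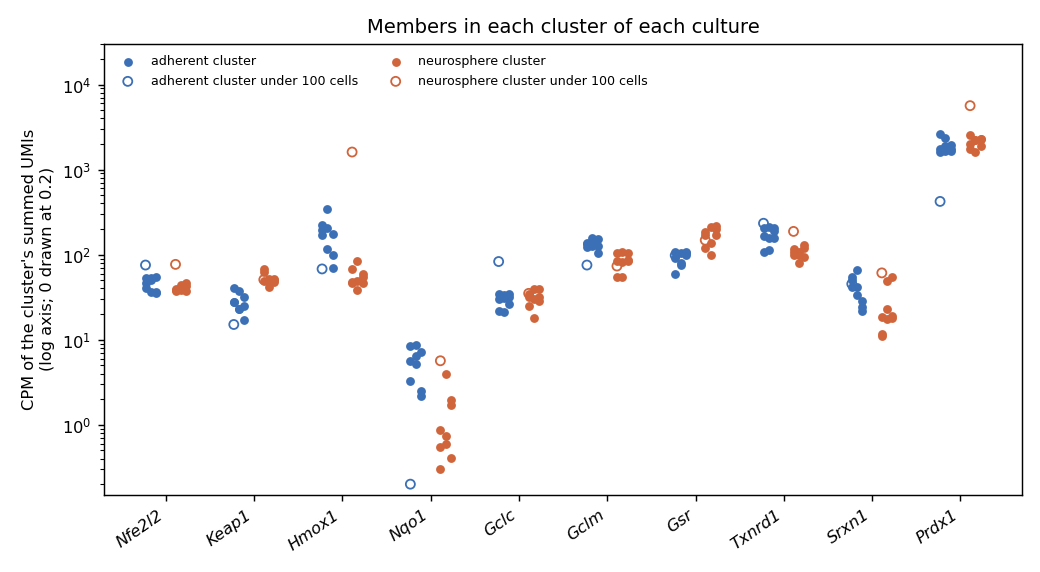
Level of each member (CPM, log axis) in the 10 adherent (blue) and 10 neurosphere (orange) clusters, with open circles for clusters under 100 cells and a level of 0 drawn at 0.2. The values are apart for Keap1, by a gap within the counting intervals, and overlap for every other member, and the open orange circle of neurosphere cluster 9 lies far above the rest in Hmox1.

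The 5 genes whose levels over clusters were most like the mean of the 8 members other than Nfe2l2 and Keap1 were Hhipl1, Hvcn1, Drc3, Serpinb1a and Dusp5, among 13281 genes compared. Their levels were low, at 1.92 to 9.55 CPM in the adherent and 0.277 to 2.80 CPM in the neurosphere library. The lower of the 2 Pearson's r, 1 per culture over 10 clusters each, was 0.843 to 0.851. These genes were picked as the highest of those compared, so their r is a description and no test. Without the clusters under 100 cells, r over the neurosphere clusters was 0.419 to 0.545, so the likeness there rests on cluster 9.

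Genes around the members were taken from 14 further lists, chosen with earlier results of these data known. Their counts stand beside the shares over all genes given above, 21.7% over 2-fold higher and 11.7% over 2-fold lower. With TMM scaling these shares were 16.1% and 14.5%, and with mitochondrial and ribosomal genes in the totals 29.5% and 9.38%, and counts under either scaling are to be read against them. Among 12 partners and regulators of Nrf2, the median log2 fold change was 0.50, with 4 genes over 2-fold higher (2 with TMM scaling) and 1 lower. Nfe2l3, a related factor, was at 3.24 CPM in the adherent and 18.9 CPM in the neurosphere library (2.55, interval 2.30 to 2.80), while Nfe2l1, another relative that controls proteasome genes, was at 69.2 and 29.4 CPM (-1.23, -1.31 to -1.15). Rbx1, a subunit of the ubiquitin ligase that Keap1 serves, was at 1126 and 1120 CPM (-0.01), and Sqstm1 was at 238 and 187 CPM (-0.35). By size, these relatives of Nrf2 differed more between cultures than Nfe2l2 itself.

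In the rest of glutathione synthesis and transport, 5 of the 12 measured genes of 14 were over 2-fold lower in neurosphere cells and none over 2-fold higher. The median was -0.62, 2 genes lay above 0, and all 12 lay below the median of all genes. Cth, which makes cysteine from cystathionine, was at 110 CPM in the adherent and 21.3 CPM in the neurosphere library (-2.36, -2.45 to -2.28). Ggct, of glutathione breakdown, was at 492 and 122 CPM (-2.01), and Slc7a11, named after its values were seen, was at 28.3 and 5.54 CPM (-2.35). Slc3a2, the partner chain of Slc7a11, was at 280 and 226 CPM (-0.31), and Chac2, which also breaks down glutathione, was the highest at 18.7 and 22.8 CPM (0.28, 0.16 to 0.41).

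Among enzymes that use glutathione, 12 of the 28 measured genes of 33 were over 2-fold lower and none over 2-fold higher, with a median of -0.67. Gpx4, which reduces lipid peroxides, was at 1368 CPM in the adherent and 340 CPM in the neurosphere library (-2.01, -2.03 to -1.99). Esd, which completes the glutathione-dependent removal of formaldehyde, was at 471 and 137 CPM (-1.78). The ends of the list were Gstt1 (2.10 and 0.140 CPM, -3.92) and Gstt3 (4.56 and 6.67 CPM, 0.55), both glutathione transferases. Reads of transferases with near-identical copies may have been split or lost in counting.

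Of the 16 genes of the thioredoxin and peroxiredoxin system none was over 2-fold lower and 1 was over 2-fold higher, Sesn3, a sestrin, at 24.8 CPM in the adherent and 50.0 CPM in the neurosphere library (1.02). With TMM scaling 1 was lower and none higher, and with mitochondrial and ribosomal genes in the totals 2 were higher. The median was -0.10, and 0.12 under the latter. Txn1, thioredoxin itself, was at 2617 and 1670 CPM (-0.65), and Prdx2, a cytosolic peroxiredoxin, at 919 and 500 CPM (-0.88).

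Superoxide dismutases and catalase were divided. Sod1 of the cytosol was at 121 CPM in the adherent and 55.8 CPM in the neurosphere library (-1.12), Sod2 of mitochondria at 278 and 199 CPM (-0.48), and Cat, catalase, at 16.7 and 28.8 CPM (0.79). Of the 9 genes of NADPH supply, 2 were over 2-fold higher and 2 lower, with a median of -0.05 that was 0.17 with mitochondrial and ribosomal genes in the totals. G6pdx, the first enzyme of the pentose phosphate pathway, was at 69.9 and 22.4 CPM (-1.64), and Taldo1 of the same pathway at 820 and 295 CPM (-1.47). Nnt, the mitochondrial transhydrogenase, was at 1.79 and 7.65 CPM (2.09), summed over its 2 identifiers.

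Of 8 measured genes of heme and iron, 2 were over 2-fold lower and 1 was higher, with a median of -0.62, and with TMM scaling 3 were lower and none higher. Blvrb, a biliverdin and flavin reductase, was at 256 CPM in the adherent and 59.5 CPM in the neurosphere library (-2.11), and Fth1, the ferritin heavy chain, at 4420 and 1377 CPM (-1.68). Ftl1, the ferritin light chain, was at 1745 and 1823 CPM (0.06, which the TMM shift takes below 0), and its reads may be shared with pseudogene copies. Tfrc, the transferrin receptor, was at 22.6 and 48.4 CPM (1.10).

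Other detoxification genes linked to Nrf2 had a median of -0.95 over 11 measured genes of 14, with 5 over 2-fold lower and 2 higher, and 8 were over 2-fold lower with TMM scaling. Ephx1, an epoxide hydrolase, was at 6.85 CPM in the adherent and 1.56 CPM in the neurosphere library (-2.14), and Akr1b8, an aldo-keto reductase, at 78.6 and 20.4 CPM (-1.94). Against them, Akr1c13 was at 0.864 and 8.41 CPM (3.28) and Ugdh, which makes UDP-glucuronic acid, at 106 and 300.3 CPM (1.46 to 1.55). The list therefore held genes far on both sides of the median of all genes.

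**Figure D5:**
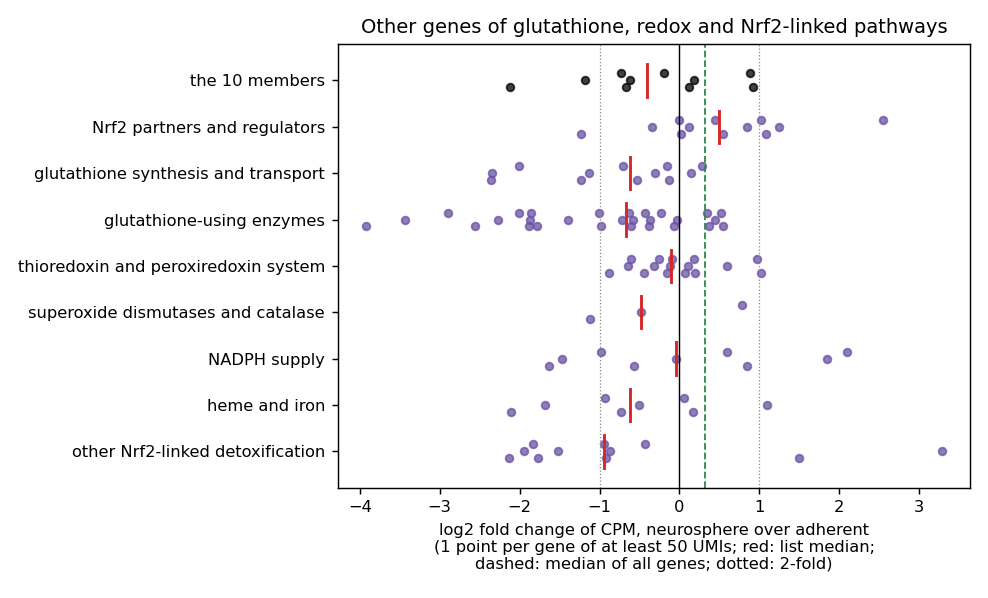
Log2 fold change, neurosphere over adherent, of each gene with at least 50 UMIs in 8 lists beside the 10 members, with the list's median in red, the median of all genes dashed and 2-fold dotted. The lists of glutathione synthesis and of glutathione-using enzymes have no gene past the upper 2-fold line, and their medians (-0.62 and -0.67) lie left of 0.

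Values of stress and cell cycle genes are given beside the members, and their part in the members' levels was not tested. Of 10 genes of the integrated stress response, which also drives Slc7a11, Cth and Chac1, 4 were over 2-fold lower and none over 2-fold higher, with a median of -0.46. Nupr1 was at 173 CPM in the adherent and 10.1 CPM in the neurosphere library (-4.09), Asns, asparagine synthetase, at 381 and 145 CPM (-1.40), Atf4, its main factor, at 491 and 337 CPM (-0.54), and Sesn2 at 30.6 and 33.0 CPM (0.11). Of 8 measured genes that respond to cell dissociation, the median was 0.71, with 2 over 2-fold higher and 2 lower. With TMM scaling 1 was higher and 2 were lower, and with mitochondrial and ribosomal genes in the totals 3 were higher and none lower. They ran from Atf3 (58.3 and 26.1 CPM, -1.16) to Egr1 (36.8 and 137 CPM, 1.89), and Jun (0.72) and Ier2 (0.90) had the highest counts.

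The 10 S phase genes had a median of 0.64, from 0.10 (Gins2) to 1.93 (Mcm2), with 3 over 2-fold higher, and Pcna was at 0.20 and Slbp at 1.59. The 10 G2/M genes had a median of -0.25, from -0.63 (Tpx2) to 0.37 (Ccnb1), and Ube2c was at -0.56 and Cdk1 at 0.05. Of the 5 measured astrocyte markers the median was 0.57, from Slc1a3 (-2.20) to S100b (0.66), and the immune marker Cd68 was at 10.5 CPM in the adherent and 4.25 CPM in the neurosphere library (-1.30). All these values are log2 fold changes of the same 2 libraries.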

How the data were processed

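GL261 cells grown adherently or as neurospheres were profiled as 1 scRNA-Seq library each (10x Genomics, 3’ v3 chemistry). The authors deposited raw UMI counts per gene and cell for the cells called by Cell Ranger 7.0.1, without normalization. The submitters' processing notes name mm10, and the annotation and intron setting are not given in the sources used here.

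From the counts, 13 mitochondrial and 101 ribosomal genes were removed, followed by cells with fewer than 1000 UMIs or fewer than 1250 (adherent) or 2250 (neurosphere) genes. These are limits the study names, and the study's own step left slightly more cells of each culture. The minimum of UMIs for a gene to be counted among all genes was 50 over both libraries. Intervals at 95% were exact (binomial for shares, Poisson for CPM and conditional binomial for fold changes) and were tested on simulated data. No doublet caller was used. Clustering in Seurat 5.3.0 (R 4.3.3) took 2000 variable genes, 17 and 18 PCs and a resolution of 1.0. TMM factors came from edgeR 4.0.16. Other steps used Python 3.11.15 (scipy 1.17.1, numpy 2.4.6, statsmodels 0.14.6, pandas 2.3.3, matplotlib 3.10.9).

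The members and lists were chosen with earlier results of these data known. All 10 members are named, and of each other list the genes with the largest and smallest log2 fold change and up to 2 with the highest counts. Positions are those of the GENCODE annotation of GRCm38, where 32235 of 32285 identifiers matched.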

Additional observations from a re-analysis of the deposited data

How the results depend on the processing

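The median log2 fold change of the members (-0.41) was -0.63 with TMM scaling and -0.19 with mitochondrial and ribosomal genes in the totals. With those genes in the totals, 2 members were over 2-fold higher (Keap1 and Gsr) and 1 was over 2-fold lower (Nqo1), against 29.5% and 9.38% of all genes. Of the members, Nfe2l2, Gclc and Prdx1 changed sign under at least 1 alternative, as given with their values, and all 10 kept their side of the median of all genes under the 9 alternatives that do not shift all genes alike. The minimum of UMIs moved the share of all genes over 2-fold lower between 9.47% and 14.7%. At a resolution of 0.8, the highest neurosphere cluster of Hmox1 was 12.2 times the lowest, against 41.8 at 1.0, and at 1.0 it was 7.37 times without the neurosphere cell highest in Hmox1. With Nqo1 at 0 in 1 adherent cluster, its ratio over adherent clusters had no value. No paired analysis was possible because each culture had 1 library, and for the same reason no library could be left out. Counts below 100 UMIs, as for Nqo1 in neurosphere cells, limit the precision.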
